A study of Homo sapiens with 9 samples.

Results

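The most strongly transcribed starts of RPE1 cells, an hTERT-immortalised human retinal pigment epithelium line, were followed through the response to UV-C by BrU-seq. Each start is a transcription start site (TSS) listed under 1 identifier, with nascent RNA signal given in bins of 200 bp around it. The level of a start was the mean signal per bin from the TSS to 25 kb downstream. A start was included when this level, averaged over the 3 mock-treated libraries, was 20 or more, which held for 178 of the 7936 identifiers present in every library. These are called the high starts here. The 1857 identifiers with a mock mean from 1 to 4 were treated the same way and served as comparison starts.

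The 3 lines all carried the background that the labels give as RPE1 iCas9 p53/puro-dKO: WT cells, cells without STK19 (KO), and KO cells given STK19-TY (rescue). Every group used here, WT included, therefore shared the p53/puro double knockout. Each line was mock-treated or exposed to 12 J/m2 of UV-C, and was then labelled with 2 mM bromouridine for 30 min. The labels differ on whether labelling began or ended at 3 h and 16 h. The treatment labels, which give a start at 2.5 h or 15.5 h after exposure, were followed here. On that reading the libraries are named for the end of labelling, 3 h or 16 h. There was 1 library for each line and condition, 9 in all, and the series asks how STK19 bears on the recovery of transcription after UV. How many clones the KO and rescue lines stand for, and which promoter drives the transgene, is not stated in the labels. Depth differed between libraries: the smallest step of signal was 0.373 in the deepest library (WT, 16 h) and 4.88 in the shallowest (KO, 3 h), a 13.1-fold range. Differences between 2 single libraries had no replicate check.

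UV-C joins neighbouring pyrimidines in DNA, and RNA polymerase II halts when it meets such a lesion on the strand it is copying. Transcription-coupled repair recognises the halted polymerase, clears it and repairs the strand, after which the gene can be read through again. New polymerases can still enter at the start while those further into the gene are held up. Nascent RNA near a start and nascent RNA far from it can therefore change separately after UV.

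The identifiers carried no gene symbol, and 0 of the 7936 matched the RefSeq table used here (GRCh38.p14), so genes, sequences and the STK19 locus are not analysed here. The mock means of the 178 high starts ran from 20.1 to 295.6 with a median of 32.8. The 3 members closest to the threshold from above had mock means of 20.07, 20.19 and 20.37, and the 3 identifiers closest to it from below had 19.77, 19.80 and 19.97.

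Not every high start had its strongest signal at the TSS itself. In the mock libraries the first 5 kb window was the highest of the 5 windows up to 25 kb at 115 of the 178 (64.6%), close to the 63.1% among comparison starts. The last of these windows was the highest at 20 members. At 21 members the mean of the first window was at least 2-fold below the member's own level, and at 9 members it held less than 1. The signal from 5 to 1 kb upstream exceeded that of the first window at 8 members (4.49%), against 18.6% of comparison starts.

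The signal around some members was also shared. Among 15753 pairs of members, 8 had signal tracks that matched after a shift of 14.6 to 118.4 kb (correlation of log signal at least 0.97). Those pairs held 16 members, so the 178 members stood at 170 separate loci. In 2 of the 8 pairs the match, at 0.993 or more, was found with a track reversed. The strand of the identifiers was not known, so their opposite orientation is inferred from the match itself. On that reading the signal there did not separate the strands. Single bins rarely carried a level: the highest bin held a median of 3.70% of the signal from 0 to 25 kb and at most 21.9%.

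The high starts held a large part of the signal, and that part was smaller at 16 h than at 3 h. After mock treatment they gave 31.5% of all signal from 0 to 25 kb in WT cells, 35.5% in KO cells and 36.9% in rescue cells. At 3 h the shares were 28.2%, 32.6% and 35.3%, and at 16 h they were 19.8%, 25.5% and 26.1%. The share at 16 h lay below that at 3 h in each of the 3 lines. The mock libraries chose the members, which raises the mock shares, so nothing is read from a fall from mock.

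In WT, single members ran from 8.30 to 211 in mock (median 36.6), from 5.21 to 237 at 3 h (median 42.1) and from 1.94 to 248 at 16 h (median 20.3). KO members ran from 14.4 to 407 in mock (median 32.0), from 4.57 to 449 at 3 h (median 34.5) and from 3.08 to 364 at 16 h (median 34.0). In the rescue line they ran from 12.8 to 321 in mock (median 32.7), from 4.27 to 698 at 3 h (median 37.1) and from 4.95 to 383 at 16 h (median 32.9). The 9 ranges overlapped widely, and WT at 16 h had the lowest median of the 9 libraries.

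**Figure D1:**
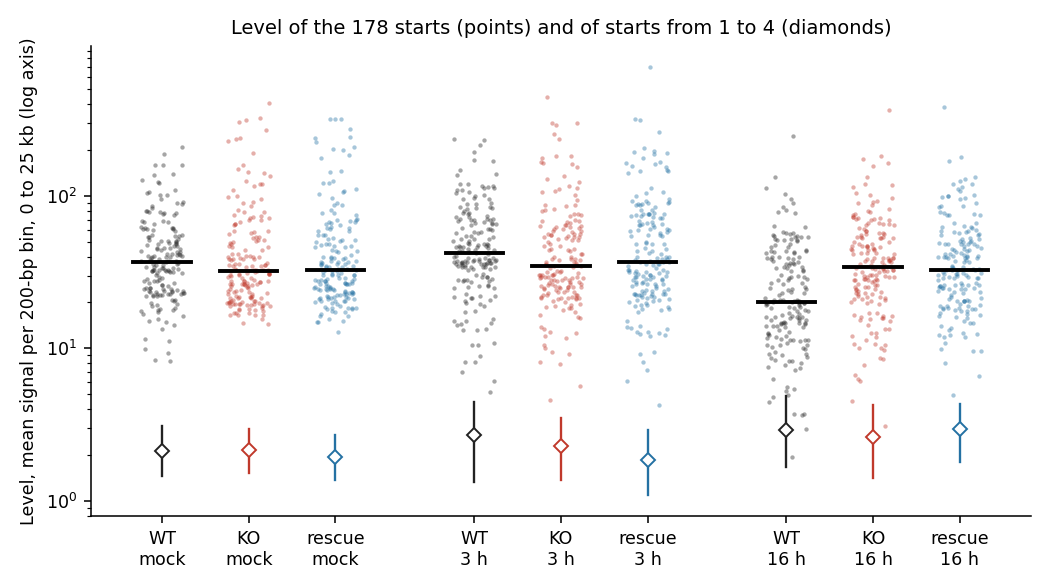
Level of the 178 high starts (points, mean signal per 200-bp bin from 0 to 25 kb, log axis) in each of the 9 libraries, with a black bar at their median. The diamonds and quartile lines belong to the comparison starts, not to the high starts. Among the high starts the WT 16 h library stands lowest with a median of 20.3, while the other 8 medians lie between 32.0 and 42.1.

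The change from 3 h to 16 h is not taken from the mock libraries that chose the members, so it is the one that can be counted against other identifiers. The choice can still bear on it where levels at 3 h follow mock more closely than levels at 16 h do, which was not tested. From 3 h to 16 h the level of the high starts went down in WT, with a median log2 change of -0.82 and 150 of 178 members lower, 80 of them by at least 2-fold. The rescue line had a median of -0.17 with 101 members lower, 44 by at least 2-fold. In KO the median was 0.05 with 82 members lower, 32 by at least 2-fold, and it turned to -0.15 under trimmed-mean scaling. Comparison starts had medians above 0 over the same interval, at 0.17 in WT cells, 0.19 in KO cells and 0.61 in rescue cells, of which the KO value would lie just below 0 under that scaling.

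Within a line the gap between high and comparison starts does not depend on how libraries are scaled, apart from the small pseudocount. The median change of the high starts minus that of the comparison starts was -0.99 in WT, -0.78 in rescue and -0.14 in KO. WT and rescue thus both had a wide gap and KO a narrow one, each measured in 1 library per time.

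The test used limma across the 3602 identifiers whose mean level reached 1, with the 3 lines as blocks. All libraries, mock included, shared 1 estimate of the spread. Of the 178 high starts, 54 passed as lower at 16 h than at 3 h (30.3%), against 8.5% of all identifiers tested, and 4 passed as higher, against 12.2% of all. The median fitted log2 change was -0.36 over the members and 0.20 over all identifiers tested. Among the comparison starts tested, 67 of 1734 passed as lower and 268 as higher. With only the 3 h and 16 h libraries in the fit, 40 members passed as lower and 3 as higher, beside 6.44% and 6.39% of all. Trimmed-mean scaling moved the median of all identifiers from 0.20 to 0.03 and the split over all to 11.5% lower and 6.91% higher, while the members had 61 lower and 3 higher. Without the rescue line 26 members passed as lower and none as higher, beside 3.83% lower and 0.750% higher of all identifiers in that fit. The p-values measure how far the lines differ, and rescue was made from KO, and not how far separate cultures differ.

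The share of members that passed as lower was largest in the highest band of mock level. Among members with a mock mean from 20 to 30, 14 of 78 passed as lower, among those from 30 to 50 it was 10 of 47, and among those of 50 or more it was 30 of 53. In the band of 50 or more the median change from 3 h to 16 h was -1.61 in WT with 51 of 53 lower, -0.58 in KO with 37 lower and -0.79 in rescue with 42 lower. That was the one band of members in which all 3 medians were below 0. From 20 to 30 the medians were -0.54 in WT cells, 0.19 in KO cells and 0.09 in rescue cells, and from 30 to 50 they were -0.78, 0.26 and -0.02.

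Among the bands below the threshold WT had 0.17 from 1 to 4, -0.24 from 4 to 10 and -0.68 from 10 to 20, so the band just below the threshold had a lower WT median than the lowest band of members. In KO those bands had 0.19, 0.26 and 0.15, and in rescue 0.61, 0.30 and -0.08. Trimmed-mean scaling adds the same amount to every change of a line from 3 h to 16 h, which is 0.09 in WT cells, -0.20 in KO cells and -0.41 in rescue cells. It leaves the order of the bands as it is. With it the KO medians from 1 to 4, from 10 to 20 and from 20 to 30 and the rescue medians from 4 to 10 and from 20 to 30 would also lie below 0.

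**Figure D2:**
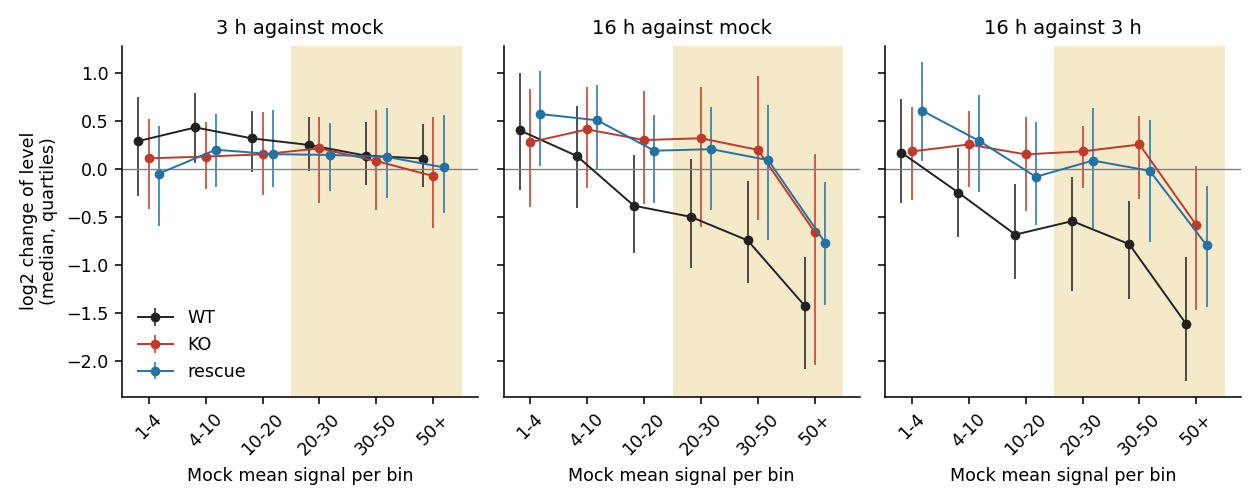
Median log2 change of level by band of mock mean in WT, KO and rescue, with quartiles as bars and 0 marked. From 3 h to 16 h the WT median is 0.17 in the band from 1 to 4, -0.68 from 10 to 20, -0.54 from 20 to 30 and -1.61 at 50 or more, and in that last band the KO and rescue medians are -0.58 and -0.79.

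The 3 members with the highest mock means can be followed start by start. The highest had levels of 160 (WT), 407 (KO) and 319 (rescue) after mock treatment. At 3 h it had 81.7, 183 and 145, and at 16 h 11.7, 39.2 and 56.1, so each line was lower at each later time, and the change from 3 h to 16 h was -2.12 (SE 0.37, limma adjusted p = 0.000264). The second had 211, 307 and 321 in mock, 169, 107 and 178 at 3 h, and 47.4, 74.6 and 108 at 16 h. It was lower at 16 h than at 3 h in every line, but the KO values stood close together, and the change of -1.03 did not pass (limma adjusted p = 0.063). The third had 104, 325 and 321 in mock, 112, 299 and 261 at 3 h, and 17.1, 71.3 and 111 at 16 h, so its level at 3 h was still near that of mock, and it then fell by 2.00 on the log2 scale (limma adjusted p = 0.000759). Among the 10 members with the highest mock means, 9 were lower at 16 h than at 3 h in each of the 3 lines.

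Members differed in how the lines moved together from 3 h to 16 h. All 3 lines were lower at 70 of the 178 members and higher at 24. At 41 members WT was lower while KO and rescue were both higher, and at 31 WT and rescue were lower while KO was higher. WT and KO were lower and rescue higher at 8. WT was never the single line that rose, and at 4 members it rose with 1 other line. Of the 58 members that passed the test, 53 moved the same way in all 3 lines.

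The largest fall among the members that passed and moved alike was at uc002rne.3. After mock treatment its levels were 45.5 in WT cells, 191 in KO cells and 203 in rescue cells, followed by 46.4, 182 and 197 at 3 h, and 4.83, 15.8 and 14.1 at 16 h. The WT level lay below those of KO and rescue in every condition, yet the fall after 3 h was seen in all 3 lines, with a log2 change of -3.52 (SE 0.31, 3 lines, limma adjusted p = 1.83e-08). The next largest was at uc057zdx.1, with 68.2, 71.6 and 60.7 in mock, 54.4, 123.6 and 104 at 3 h, and 4.42, 13.3 and 17.5 at 16 h. KO and rescue had gone up at 3 h before all 3 lines dropped, and the log2 change from 3 h to 16 h was -3.12 (SE 0.34, limma adjusted p = 4.74e-07). Its signal lay away from the TSS, since the first 5 kb held only 5.79 in WT mock cells.

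Of the 4 members that passed as higher, the largest rises were at uc002vvg.5 and uc001lke.4. The first had 35.5, 16.6 and 14.8 in mock, 10.6, 4.57 and 4.27 at 3 h, and 19.2, 10.7 and 20.3 at 16 h in WT, KO and rescue. It was thus low in every line at 3 h and rose again by 16 h, by 1.43 on the log2 scale (SE 0.29, limma adjusted p = 0.00131). The second had 47.8, 39.7 and 32.9 in mock, 36.2, 22.3 and 20.7 at 3 h, and 103, 37.0 and 85.5 at 16 h, a log2 change of 1.43 (SE 0.32, limma adjusted p = 0.0031). At 16 h it stood above mock in WT and rescue and just under it in KO. Neither rise passed without the rescue line, where the limma adjusted p was 0.165 for uc002vvg.5 and 0.219 for uc001lke.4. The rise of uc002vvg.5 also missed the threshold with no line block (limma adjusted p = 0.0506).

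Whether KO differed from the other lines was tested with terms for the KO response, which left 2 residual degrees of freedom. For the change of level from 3 h to 16 h, 0 of 178 members passed limma's adjusted p of 0.05, and 7 of all 3602 identifiers (0.194%) did. At an unadjusted p under 0.05 there were 17 members (9.55%) and 366 of all (10.2%). The median KO response was 0.46 over the members and 0.04 over all identifiers. The pattern of medians by line therefore stands as a description of 1 library per line and time.

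**Figure D3:**
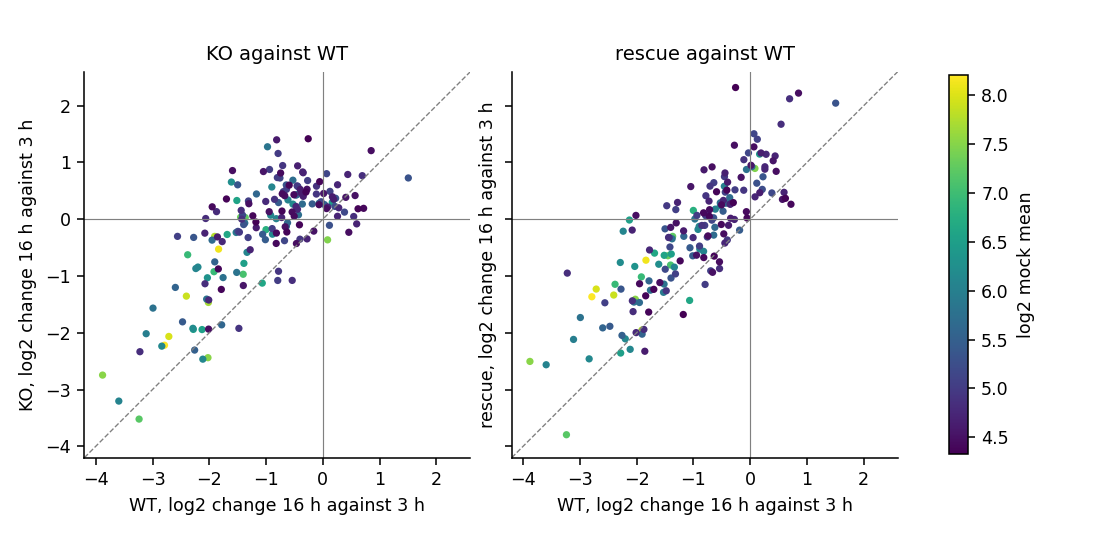
Log2 change of level from 3 h to 16 h at each of the 178 high starts, KO and rescue against WT, with the diagonal of equal change. Most points lie above the diagonal: the KO change exceeds the WT change at 153 members and the rescue change exceeds it at 158. For mock means between 4 and 20 these counts are 1130 and 1245 of 1509, and for comparison starts 924 and 1298 of 1857. Values are as deposited. Trimmed-mean scaling adds 0.09 to WT changes, -0.20 to KO changes and -0.41 to rescue changes, which moves the points down towards the diagonal.

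Set side by side at 16 h, KO lay above WT at 146 of the 178 members with a median log2 difference of 0.66, and rescue lay above WT at 167 with a median of 0.60. KO and rescue were much closer to each other, with KO higher at 82 and a median difference of -0.07. At comparison starts KO was above WT at 708 of 1857 (median -0.24) and rescue at 903 (median -0.02). In mock cells KO was above WT at 79 members and rescue at 85, and KO and rescue were within 2-fold of each other at all 178. Trimmed-mean scaling changes these differences at 16 h by -0.02 for KO against WT, -0.08 for rescue against WT and 0.05 for KO against rescue. The 16 h libraries also differed in depth, with steps of 0.373 in WT cells, 1.89 in KO cells and 0.553 in rescue cells, and the part of depth in these differences was not tested.

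Changes from mock are given as values, because the mock libraries chose the members and a start picked for a high mock value tends to be lower in any other library. From mock to 3 h the median log2 change was 0.19 in WT cells, 0.11 in KO cells and 0.11 in rescue cells, and under trimmed-mean scaling all 3 turned below 0, at -0.19, -0.07 and -0.02. From mock to 16 h it was -0.88 in WT with 141 members lower, -0.02 in KO with 91 lower, and -0.13 in rescue with 94 lower. At least 2-fold lower than mock at 16 h were 77 members in WT cells, 38 in KO cells and 41 in rescue cells. Comparison starts had 0.29, 0.11 and -0.05 at 3 h and 0.40, 0.28 and 0.57 at 16 h.

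When the members for each line were chosen on the mock libraries of the other lines alone, the median change from mock to 16 h was -0.90 in WT cells, 0.17 in KO cells and 0.10 in rescue cells. The WT value stayed below 0 under this choice, and the KO and rescue values lay above 0 as deposited but would lie below it under trimmed-mean scaling, which adds -0.38 and -0.53 to them. The limma counts against mock draw on the values that chose the members, so an excess of lower calls is built in and nothing is read from them. In that fit 12 members passed as higher and 15 as lower at 3 h against mock, beside 11.4% higher and 5.86% lower of all identifiers. At 16 h against mock it was 18 higher and 56 lower, beside 27.7% and 8.38%. With trimmed-mean scaling the members split into 4 higher and 26 lower at 3 h, beside 5.66% and 8.61% of all, and 3 higher and 81 lower at 16 h, beside 9.33% and 14.5%.

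Along the first 100 kb the high starts were steep. In WT mock cells their mean signal was 100.4 in the first 5 kb, 46.7 in the next and 37.0 in the window after that. The KO means in the same windows were 118, 59.0 and 39.7, and the rescue means were 115, 56.9 and 41.9. At 3 h the first window stood above mock in every line, at 1.32 times mock in WT cells, 1.25 in KO cells and 1.24 in rescue cells, while 16, 19 and 16 of the 20 windows up to 100 kb had a mean below mock. The mean signal was thus above mock close to the start and below it in most windows further along.

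At 16 h the first window was below mock in every line, at 0.543 times mock in WT cells, 0.815 in KO cells and 0.774 in rescue cells. The window from 5 to 10 kb stood at 0.572, 0.710 and 0.755, and the mean over members lay below mock in 20, 19 and 20 windows of 20. The median over members lay below mock in fewer (7 for WT, 16 for KO, 7 for rescue), and its ratio to mock reached 1.78 in WT at 75 kb and 2.12 in rescue at 50 kb. In the mean, the first window was the one furthest below mock in WT, whereas in KO and rescue the lowest ratios came at 55 and 60 kb, at 0.595 and 0.673. Member by member and as deposited, the first window was lower than in mock at 147 of 178 in WT cells, 75 in KO cells and 93 in rescue cells. A mean over members is led by the strongest, and all these comparisons with mock rest on the scaling between libraries and on the values that chose the members.

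Comparison starts followed another course at 16 h. Their highest ratio to mock was 1.85 in WT, at 10 to 15 kb, and 1.70 in KO and 1.74 in rescue, both at 0 to 5 kb. The first window in WT stood at 1.08 times mock there, which trimmed-mean scaling would put below 1, since it adds -0.29 to WT log2 changes from mock to 16 h.

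**Figure D4:**
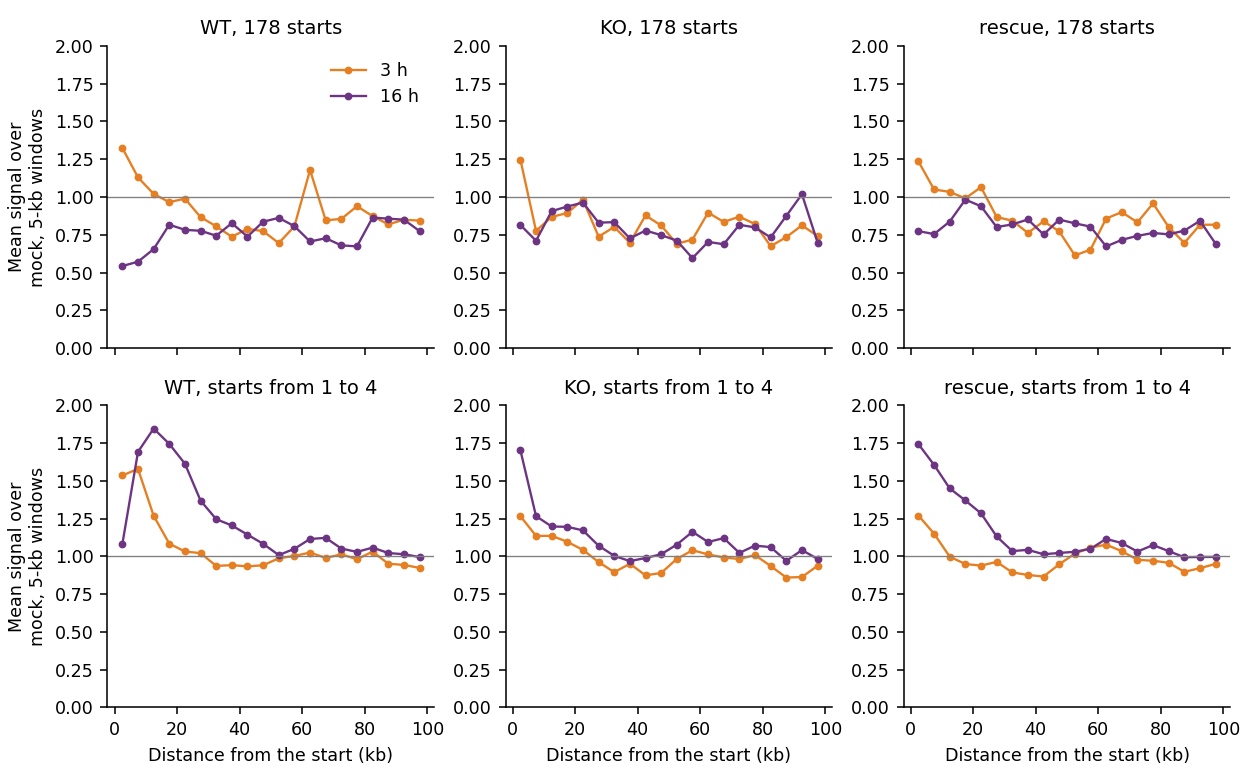
Mean signal relative to the mock library of the same line in 5 kb windows up to 100 kb, for the 178 high starts (top) and the starts with a mock mean from 1 to 4 (bottom), at 3 h and 16 h in WT, KO and rescue. The high starts lie at 1.24 to 1.32 in the first window at 3 h and at 0.543 to 0.815 there at 16 h, while comparison starts stay at or above 1.08 in that window as deposited (below 1 in WT at 16 h under trimmed-mean scaling).

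The near share, which is the percentage of the signal up to 100 kb that lies within 25 kb of the TSS, was high at these starts. Its mock median was 74.8%, with a range from 13.0% to 99.98%, against 35.4% at comparison starts. It was 90% or more at 56 members, from 60% to 90% at 72 and under 60% at 50. Since the rule asks for strong signal from 0 to 25 kb, a high near share in mock is in part what was chosen.

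In WT the median near share went from 76.6% in mock to 83.6% at 3 h and 67.0% at 16 h. KO had 74.8%, 79.4% and 74.1%, and rescue had 74.0%, 82.1% and 71.3%. Each line was highest at 3 h. From 3 h to 16 h it dropped by a median of 8.58 percentage points in WT with 152 of 178 members lower, by 1.80 in KO with 119 lower and by 4.91 in rescue with 139 lower. At comparison starts the same change was -6.13 points in WT cells, 0.71 in KO cells and -0.38 in rescue cells. Starts with a mock mean between 4 and 20 had medians of -8.59 points (WT, 1167 of 1509 lower), -0.83 (KO) and -3.52 (rescue). The WT drop was thus about the same there as at the high starts, while the KO and rescue drops were smaller.

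The ratio of near to far signal was tested at 168 members with enough signal from 25 to 100 kb. From 3 h to 16 h, 39 passed limma as lower and 4 as higher, against 8.92% lower and 4.13% higher of the 3174 identifiers tested, and the median log2 change was -0.72 over these members and -0.31 over all. Without the rescue line 7 passed as lower and 1 as higher, beside 0.788% and 0.410% of all in that fit. Against mock, whose near signal chose the members, the counts are given with nothing read from them. At 3 h against mock 20 passed as higher and 8 as lower, beside 24.5% and 4.85% of all, and at 16 h against mock 5 and 23, beside 7.66% and 3.88%. This measure is a ratio within a library, so scaling between libraries does not enter it.

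Closest to the TSS, the first 1 kb was set against the next 4 kb as a log2 ratio. At the high starts its mock median was -0.15 in WT cells, -0.35 in KO cells and -0.32 in rescue cells, so the first 1 kb was the weaker of the pair. Comparison starts had 0.16, 0.00 and 0.11. In WT the median first 1 kb went from 56.7 in mock to 64.7 at 3 h and 22.4 at 16 h, and the next 4 kb from 63.7 to 96.5 and 29.7. Both medians were highest at 3 h and lowest at 16 h as deposited, but under trimmed-mean scaling, which adds -0.38 to WT changes from mock to 3 h, the first 1 kb would be higher in mock than at 3 h.

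In KO the medians at 16 h were above those of mock as deposited, though not under trimmed-mean scaling, with a first 1 kb of 44.5 in mock, 58.6 at 3 h and 55.7 at 16 h, and a next 4 kb of 57.6, 69.4 and 61.2. The rescue values were 46.0, 52.2 and 36.1 for the first 1 kb and 52.7, 71.4 and 51.0 for the next 4 kb. The median change of the ratio from mock to 16 h was 0.38 in KO with 132 of 178 members higher, -0.16 in WT with 64 higher and -0.19 in rescue with 63 higher. From mock to 3 h it was 0.26 in KO, -0.24 in WT and 0.01 in rescue. Comparison starts had the same signs at 16 h, with 0.31 in KO, -0.25 in WT and -0.17 in rescue. The medians of the high starts minus those of the weaker starts were thus small at 16 h, at 0.08 in KO, 0.09 in WT and -0.03 in rescue. At 3 h they were 0.26, 0.13 and 0.09. The 1 added to each region draws the ratios of weak starts towards 0, so the 2 sets are not on the same scale. The median first 1 kb of comparison starts in WT mock cells was only 3.79.

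The limma test across lines fits 1 change shared by the 3 lines, so it cannot decide on changes that go opposite ways between lines. For that shared change of the ratio, 0 of the 169 members tested passed in each of the 3 contrasts. Of the 3262 identifiers tested, 0.0% passed. The changes from mock were not tested between lines. At an unadjusted p under 0.05 there were 12 members at 16 h against 3 h, 5 at 3 h against mock and 9 at 16 h against mock, beside 9.2%, 10.3% and 4.41% of all identifiers. With terms for KO, 0 members and 1 identifier of all (0.0307%) passed for 16 h against 3 h, and 10 members and 17.4% of all had an unadjusted p under 0.05. The KO library at 3 h was the shallowest, and its part in the ratio at 3 h was not tested.

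**Figure D5:**
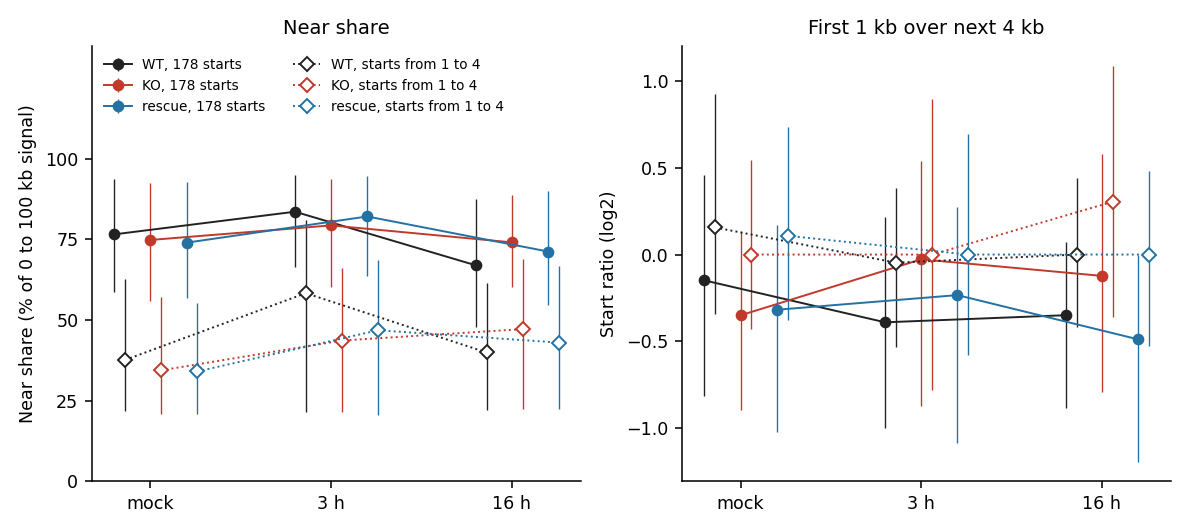
Near share (percent of the signal from 0 to 100 kb that lies from 0 to 25 kb) and log2 start ratio (first 1 kb over the following 4 kb), as medians with quartiles by condition and line, for the 178 high starts and the starts with a mock mean from 1 to 4. Near share at the high starts is highest at 3 h in all 3 lines (83.6%, 79.4% and 82.1%) and lowest at 16 h in WT (67.0%).

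Members were also split by their form in mock cells. Where the first 5 kb window was the highest, 39 of 115 passed as lower from 3 h to 16 h (33.9%) and 2 as higher. Over all identifiers tested 8.5% passed as lower and 12.2% as higher. The line medians in this first set were -0.92 in WT cells, -0.08 in KO cells and -0.18 in rescue cells. Where a later window was the highest, 15 of 63 passed as lower (23.8%) and 2 as higher, and the medians were -0.78, 0.22 and -0.17. The KO median was thus below 0 in the first set and above 0 in the second, and the difference was not tested. With trimmed-mean scaling, which lowers every KO change by 0.20, the second would stand near 0.

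By near share in mock, the change from 3 h to 16 h in WT was -0.86 at the 56 members of 90% or more, -1.12 at the 72 from 60% to 90% and -0.73 at the 50 under 60%. KO had -0.04, -0.12 and 0.23 in these sets, and rescue had -0.12, -0.33 and -0.08. WT was below both KO and rescue in each of them.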

How the data were processed

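Per the file headers, the 9 library tables hold deposited signal: coverage in bins of 200 bp on both sides of a TSS. The authors' scaling gave all libraries a similar total, and no spike-in is named in the labels; values are whole multiples of a step that differs by library. Libraries were made with a TruSeq kit, per the labels' protocols. The submitters' processing notes name the builds hg38 and GRCh38 and the tools STAR 2.7.7a, HOMER 4.8.2, Trim Galore 0.6.5 and FastQC 0.11.9, with no order. On whether counting used strand, the labels give nothing. Tables of averages over genes were not used here.

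Levels of the 7936 identifiers (of 9805 in any table) were the mean from 0 to 25 kb, which can run past a gene's end. Tests on log2(level + 0.1) were run in limma 3.58.1 under R 4.3.3 with a mean-variance trend and a Benjamini-Hochberg adjusted p under 0.05, with line and condition as terms, for a mean level of at least 1, leaving 4 residual degrees of freedom. Fold changes of low identifiers are understated by the 0.1. The start ratio was taken with 1 added to each region, where both means reached 1, and near over far a pseudocount of 10 and a far mean of at least 0.2. Line and condition medians are over members. Labels give 1 sample per group, so no replicate of a culture was at hand, and with no counts an interval for depth was not given. The 2 identifiers that rose most and the 2 that fell most are named, by the largest changes among members past the test that moved the same way in all lines. The 3 members with the highest mock means were described as well, chosen after their values were seen. Members, the comparison band and measures were chosen with earlier results of these data known. The fits were tested on simulated data. Alternatives were other member minima and bands, scalings, filters, pseudocounts and windows, no line block, and each line left out.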

Additional observations from a re-analysis of the deposited data

Results flagged for a closer look

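At the high starts several medians lay above 0 in 1 line and below 0 in another. For the change of level from 3 h to 16 h the median was 0.050 in KO, against -0.82 in WT and -0.17 in rescue. With terms for the KO response 0 of 178 members passed limma's adjusted p (17 at an unadjusted p under 0.05), and under trimmed-mean scaling the KO median was -0.15. For the start ratio (first 1 kb over the following 4 kb) from mock to 3 h it was 0.26 in KO and 0.0073 in rescue, against -0.24 in WT. From mock to 16 h that ratio had a median of 0.38 in KO, against -0.16 in WT and -0.19 in rescue. These differences from mock were not tested between lines. From 3 h to 16 h the ratio had a median of 0.0038 in KO, against -0.0048 in WT and -0.26 in rescue, and 0 of 169 members passed the test for the KO response.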

How the results depend on the processing

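Conditions were matched within a line by the line block, but no pairing by replicate number could be made, since the titles carry none and each group has 1 library. For the level at 16 h against 3 h (58 members past the test), all 17 alternatives had more members lower than higher and a share lower above that of all identifiers, with 26 to 78 lower. The count was 28 with no line block (1 higher and 27 lower, beside 2.78% and 4.19% of all). It was 35 with no low-level filter (2 higher and 33 lower, beside 5.94% and 3.06% of all). Leaving out 1 line or the KO 3 h library gave 26 to 64. The 26 came without rescue (0 higher and 26 lower, beside 0.750% and 3.83% of all). The 64 came without KO (5 and 59, beside 10.5% and 8.91%). For the level at 3 h against mock (27 members), the count was 10 with no line block (3 higher and 7 lower, beside 5.33% and 3.11% of all). It was 10 at a member minimum of 30 (5 and 5, beside 11.4% and 5.86%) and 8 with no low-level filter (1 and 7, beside 3.19% and 3.98%). More members were higher than lower there with only the 2 conditions compared (86: 54 higher and 32 lower, beside 27.1% and 10.6% of all). So it was with a window from 0 to 10 kb (25: 17 and 8, beside 13.5% and 5.36%). The same held without the KO line (17: 9 and 8, beside 8.11% and 4.55%) and without the KO 3 h library (21: 13 and 8, beside 10.3% and 6.02%). Leaving out lines or the KO 3 h library gave 5 to 32. The 5 came without rescue (0 higher and 5 lower, beside 2.50% and 1.97% of all). The 32 came without WT (15 and 17, beside 10.1% and 5.69%). For the level at 16 h against mock (74 members) leaving out lines or the KO 3 h library gave 39 to 82. The 39 came without rescue (1 higher and 38 lower, beside 6.83% and 4.64% of all). The 82 came without WT (33 and 49, beside 31.9% and 8.72%). The start ratio gave 3 members at 16 h against 3 h and 2 at 16 h against mock with a pseudocount of 4, and 1 at 16 h against mock with only the 2 conditions compared, in place of 0. For near over far the counts without 1 line or library were 8 to 59 at 16 h against 3 h (43 otherwise), 5 to 42 at 3 h against mock (28) and 9 to 43 at 16 h against mock (28). It was 66 at 3 h against mock with only the 2 conditions compared, and 17 at 16 h against mock with a near window from 0 to 10 kb. For the start ratio and near over far, these alternative counts stand without the share of all identifiers. Nothing about the members is read from them, nor from the counts of level against mock. Median changes of level from mock to 3 h in WT, KO and rescue were 0.40, 0.37 and 0.34 with members chosen on all 9 libraries and -0.185, -0.074 and -0.018 under trimmed-mean scaling. The WT and KO values were 0.13 and 0.0085 at a member minimum of 30. KO was 0.041 and rescue 0.17 on pooled signal, and KO 0.051 with the first 5 kb window highest. From mock to 16 h KO was 0.54 with members chosen on all 9 libraries and rescue -0.67 under trimmed-mean scaling. The locus match on log signal, the first-window members and the scaling of medians were chosen after seeing the data. The cause of these shifts was not tested. Without WT or without rescue the terms for KO could not be fitted. Depth limits the KO 3 h library most, and with no counts its error has no interval.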
